A study of Mus musculus with 10 samples.

Results

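The 10 DNA damage signalling and repair genes described here are Atm, Palb2, Rad51c, Rad50, Smc5, Smc6, Xrcc5, Msh6, Parp1 and Ercc1. Each has a listed intronic polyadenylation site in these mouse mammary tumour cells, as do 19 other DNA repair genes. At an intronic polyadenylation (IPA) site a transcript is cut and tailed within an intron, before its last exon. The members are every row for these 10 genes in the authors' 10 deposited tables, which list sites whose use differed between groups. They come to 12 of 2311 listed rows, and the whole set of tables names 1453 genes. IPA usage is the percentage of IPA reads among the IPA and last-exon reads of a gene in a library.

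Polyadenylated 3′ ends were sequenced from cultured lines of the 4T1 mouse mammary tumour family, with 10 libraries in 5 groups of 2. The lines without U1 antisense were 67NR and 168FARN, which the study calls non-metastatic, and 4T07 and 4T1, which it calls metastatic. The fifth group, 4T1-U1-ASO, was 4T1 treated with a U1 antisense morpholino delivered by the reagent Endo Porter. The study's design sets it against mock-transfected 4T1, although the labels of the 4T1 libraries name no treatment. If those 4T1 cells did not receive the reagent, its effect and that of the U1 block cannot be told apart. The labels do not tell whether replicate libraries are separate cultures, so the p-values below reflect library-to-library spread alone, which may be technical. Each group is 1 cell line, so a difference between groups of lines is a difference between 2 lines. U1 small nuclear RNA has no poly(A) tail, so its own level was not measured.

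Cells meet DNA damage with separate machineries. ATM and the MRE11-RAD50-NBS1 complex sense double-strand breaks. The breaks are then joined end to end by the Ku proteins and their partners or repaired from a sister copy by BRCA2, PALB2, RAD51C and, with other roles, the SMC5-SMC6 complex. Mismatches are read by MutS proteins, bulky lesions are cut out by XPF-ERCC1, and single-strand breaks are marked by PARP1. U1 small nuclear RNA recognises 5′ splice sites and also protects transcripts from early cleavage and polyadenylation.

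The peak lists of the libraries held 1427728 to 3347776 reads, the lowest in 67NR replicate 2, whose list covers 10 chromosomes. Of 27 marker genes of epithelial, mesenchymal, leukocyte and endothelial cells, 8 were listed in a table, and none of these was a leukocyte or endothelial marker. In 4T1 the epithelial gene Spint2 had 963 and 965 last-exon reads and the mesenchymal gene Twist2 had 2 and 0. In 168FARN, labelled as the same tumour family, Spint2 had 0 and 0 reads and Twist2 had 309 and 293. In 4T07, the line set against 168FARN in the results on lines below, Spint2 had 730 and 849 reads and Twist2 had 0 and 0. In the comparison of 4T1-U1-ASO with 4T1, last-exon reads of the mesenchymal gene Vim were 3017 and 2772 against 12512 and 13028. Those of the epithelial gene Cdh1 were 1305 and 1370 against 800 and 952. All these marker reads are unscaled. The size factors of this comparison were 1.25 and 1.27 for 4T1-U1-ASO against 0.722 and 0.967 for 4T1. Once divided by these factors, the Vim groups stay apart and the Cdh1 groups overlap, so Cdh1 shows no rise. The part of the marker differences in the results below was not tested.

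Under U1 block, 9 sites in 7 of the 10 genes were listed. The 2 Xrcc5 sites and the sites of Smc5, Msh6 and Parp1 were used more in 4T1-U1-ASO, and the sites of Smc6, Rad50 and Ercc1 were used less. The authors' deposited table thus has 6 member sites higher and 3 lower. Over all 1561 listed sites of that table, 87.6% were higher and 12.4% lower. The median deposited log2 difference of the 9 sites was 1.73, and that of all listed sites was 1.85, both from the authors' deposited table. Since the table stops at an adjusted p of 0.1, being listed is how the sites were chosen and is not a test of them. The usage values of the 2 groups did not overlap at 8 of the 9 sites, and the same held for 99.9% of all listed sites, so this count says nothing particular about the members.

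**Figure D1:**
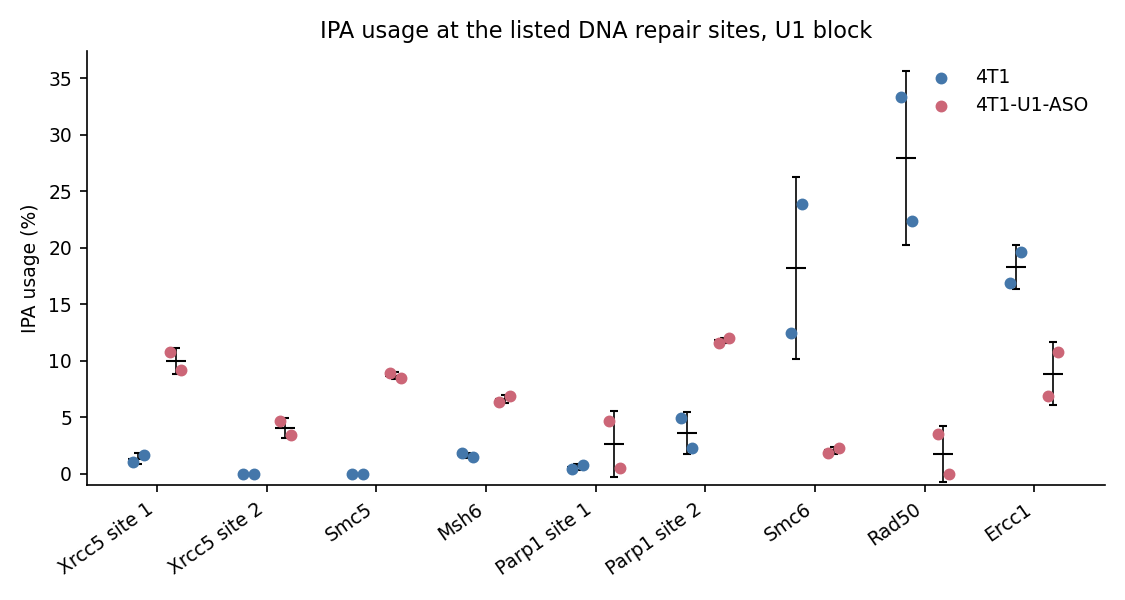
IPA usage in percent (y axis) at the 9 listed sites (x axis) in each 4T1 library (blue) and each 4T1-U1-ASO library (red), with the mean and SD of 2 libraries as black lines. Usage in 4T1-U1-ASO lies above 4T1 at the Xrcc5, Smc5, Msh6 and second Parp1 sites, below it at the Smc6, Rad50 and Ercc1 sites, and overlaps it at the first Parp1 site.

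Xrcc5 encodes Ku80, which with Ku70 binds broken DNA ends for end joining. Its first site, at chr1:72372786-72372911 on mm9, had 22 and 17 reads in 4T1-U1-ASO and 2 and 5 in 4T1, so both treated libraries were higher. Usage was 9.99% ± 1.13 against 1.36% ± 0.465 (SD, n = 2). The second Xrcc5 site, at chr1:72428760-72428988, had 9 and 6 reads in 4T1-U1-ASO and none in either 4T1 library. Its usage was 4.08% ± 0.894 (SD, n = 2) against 0 of 483 reads, which allows a usage of up to 0.621% in 4T1. Taking 3 reads over the 4T1 group as the limit, reads at the second site were at least 3.35-fold higher in 4T1-U1-ASO. Reads at both sites rose (edgeR, log2 1.87 with adjusted p = 0.00495 at the first, adjusted p = 0.00194 at the second). Neither rise was called without 4T1-U1-ASO replicate 1 (adjusted p = 0.094 and 0.149), and they were not called without 4T1 replicate 1 at the first site (0.0555) or 4T1 replicate 2 at the second (0.0508). In the authors' deposited table, log2 differences of IPA relative to the last exon were 2.42 (first site) and 3.07 (second site). Their adjusted p was 0.002 and 0.003.

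Both Xrcc5 sites share 1 last exon, whose peak ended 68.6 kb and 12.5 kb 3′ of the sites. It had 182 and 168 reads in 4T1-U1-ASO and 192 and 291 in 4T1. Normalized last-exon reads were 2.04-fold lower in the treated cells (edgeR, log2 -1.03, adjusted p = 0.00203). Xrcc5 was therefore a gene with more reads at its intronic ends and fewer at its last exon. Because whole cultures were sequenced, fewer cells with the transcript and less of it per cell cannot be told apart. The last-exon call was lost when libraries were scaled by their peak-list read totals (log2 -0.44, adjusted p = 0.146).

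Smc5 encodes a core ATPase of the SMC5-SMC6 complex, which acts in recombination repair and at stalled replication forks. Its site, at chr19:23291578-23292027 on the minus strand, had 25 and 23 reads in 4T1-U1-ASO and none in 4T1. The peak list of 4T1-U1-ASO replicate 1 had no peak counted at the site, and a peak of 25 reads was centred 3092 bp 3′ of it. Whether these are the same reads was not tested. Usage was 8.69% ± 0.29 (SD, n = 2) against 0 of 63 reads, and that depth allows up to 4.76% in 4T1. Reads at the site were at least 10.7-fold higher in the treated cells, against the limit of 3 reads over the 4T1 group (edgeR, adjusted p = 8.96e-07). The last exon of Smc5 had 256 and 248 reads in 4T1-U1-ASO and 15 and 48 in 4T1. Smc5 thus had more reads in both parts of its usage ratio, with last-exon reads up 5.68-fold after normalization (edgeR, log2 2.46, adjusted p = 0.000962). In the authors' deposited table, its log2 difference in usage was 1.94 with an adjusted p of 0.088. In the edgeR test of IPA relative to the last exon, the log2 difference was 4.88 with all libraries. Without 4T1 replicate 2 it was 4.11, and the site was no longer called.

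Smc6 encodes the partner ATPase of Smc5. Its site, at chr12:11292397-11292770, had 8 and 10 reads in 4T1-U1-ASO and 1 and 16 in 4T1, and these groups overlap. Last-exon reads of Smc6 were 427 and 424 in the treated libraries and 7 and 51 in 4T1. Usage was 2.07% ± 0.329 against 18.2% ± 8.05 (SD, n = 2). In the authors' deposited table the log2 difference was -2.33 with an adjusted p of 0.033. The site was listed as used less, while its own reads did not pass the test (edgeR, log2 -0.48, adjusted p = 0.446) and the last exon rose 10.8-fold on normalized means (edgeR, log2 3.35, adjusted p = 0.000962). Of the 1131 genes tested on last-exon reads, 4 had a larger rise than Smc6 and 10 a larger rise than Smc5, as given by their ranks of 5 and 11.

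Rad50 encodes the ATPase of the MRE11-RAD50-NBS1 complex, which holds and signals broken ends. Its site, at chr11:53505305-53505553 on the minus strand, had 3 and 0 reads in 4T1-U1-ASO and 3 and 11 in 4T1. The last exon had 82 and 110 reads in the treated libraries and 6 and 38 in 4T1. Usage was 1.76% ± 2.5 against 27.9% ± 7.7 (SD, n = 2), and the groups did not overlap. The log2 difference was -2.34 with an adjusted p of 0.036 in the authors' deposited table. Reads at the Rad50 site fell (edgeR, log2 -2.67, adjusted p = 0.0057), and last-exon reads rose 3.2-fold (edgeR, log2 1.59, adjusted p = 0.0264). Neither was called with TMM scaling, at an adjusted p of 0.0548 at the site and 0.0509 at the last exon. The fall at the site was also not called without 4T1 replicate 2 (adjusted p = 0.324) or without 4T1-U1-ASO replicate 2 (adjusted p = 0.168).

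For the 3 genes whose last exons rose, no last-exon peak could be matched in the peak lists. One was matched for Xrcc5, Msh6, Parp1 and Ercc1. Where the last-exon reads of Smc5, Smc6 and Rad50 lie was therefore not checked. These 3 genes were also the 3 members whose 4T1 libraries differed most. Normalized last-exon reads in 4T1 replicate 2 were 5.44 times those in replicate 1 for Smc6, 4.73 times for Rad50 and 2.39 times for Smc5. Over 1124 listed genes with at least 10 last-exon reads in 4T1, the median of this ratio was 0.93 and its 95th percentile was 2.39. Smc6 and Rad50 ranked 4 and 5 from the highest. For Parp1, Ercc1, Xrcc5 and Msh6 the ratio was 0.952, 0.77, 1.13 and 1.14. The treated libraries lay closer together, with a ratio of 0.981 for Smc6, 1.33 for Rad50 and 0.957 for Smc5.

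The size of the rise therefore depended on which 4T1 library was kept, while its direction and its call did not. For Smc6 the log2 rise was 2.67 without 4T1 replicate 1 and 5.10 without 4T1 replicate 2. For Rad50 it was 0.95 and 3.18, and for Smc5 it was 2.01 and 3.26, in the same order. For IPA relative to the last exon at the Smc6 site, the edgeR log2 difference was -3.81 with all libraries. It was -2.83 without 4T1 replicate 2, and the site was then not called. Reads at the Smc6 site then had a log2 difference of 2.27, a turn in sign from -0.48, with an adjusted p of 0.0833.

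The peak lists of the single libraries held further peaks on the same strand around the Smc6 site, which no comparison table lists. In 4T1-U1-ASO, 6 peaks with 144 to 231 reads in each library lay between 2.8 kb 5′ and 15.6 kb 3′ of the site. The list of 4T1 replicate 1 held none of them. The list of 4T1 replicate 2 held 4 of them, with 10 to 18 reads. The lists are not complete, so a missing peak is not a measured 0, and without an mm9 annotation these peaks were not assigned to exons or introns. They were not tested.

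**Figure D2:**
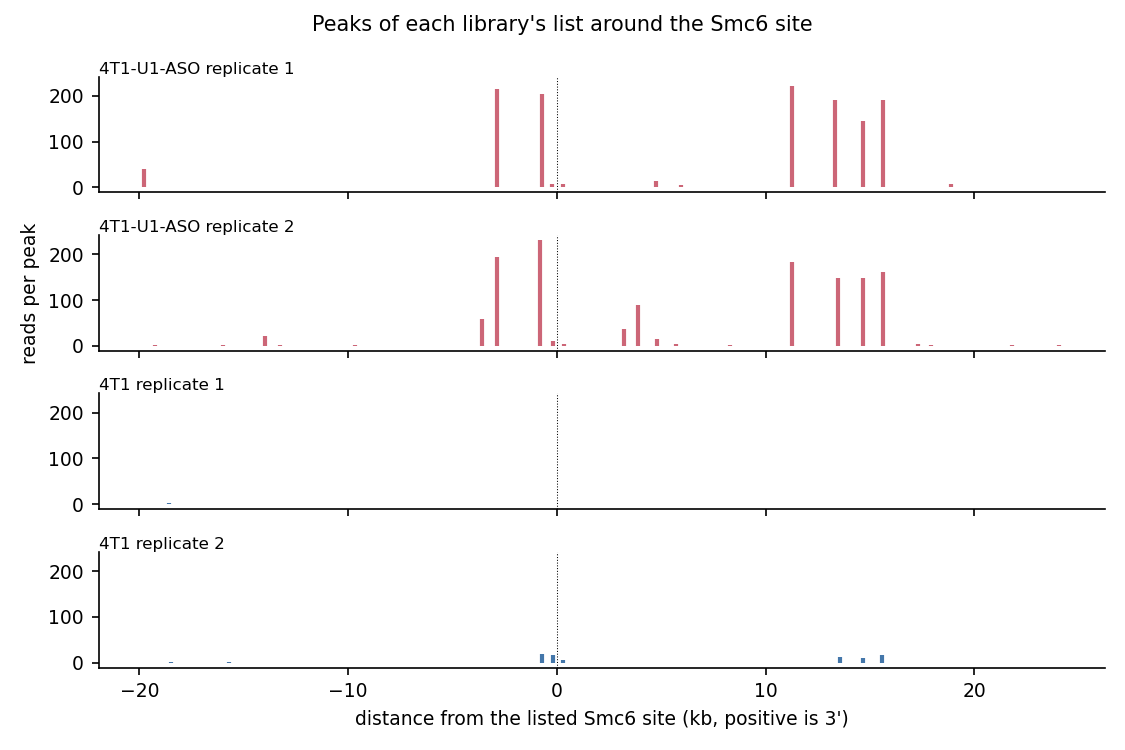
Reads per peak (y axis) in the peak list of each 4T1-U1-ASO library (red) and each 4T1 library (blue) by distance from the listed Smc6 site in kb (x axis, positive is 3′, dotted line at the site). Each of the 6 tall peaks has 144 to 231 reads in the 4T1-U1-ASO libraries, and the 4T1 lists show at most 18 reads at the same places.

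**Figure D3:**
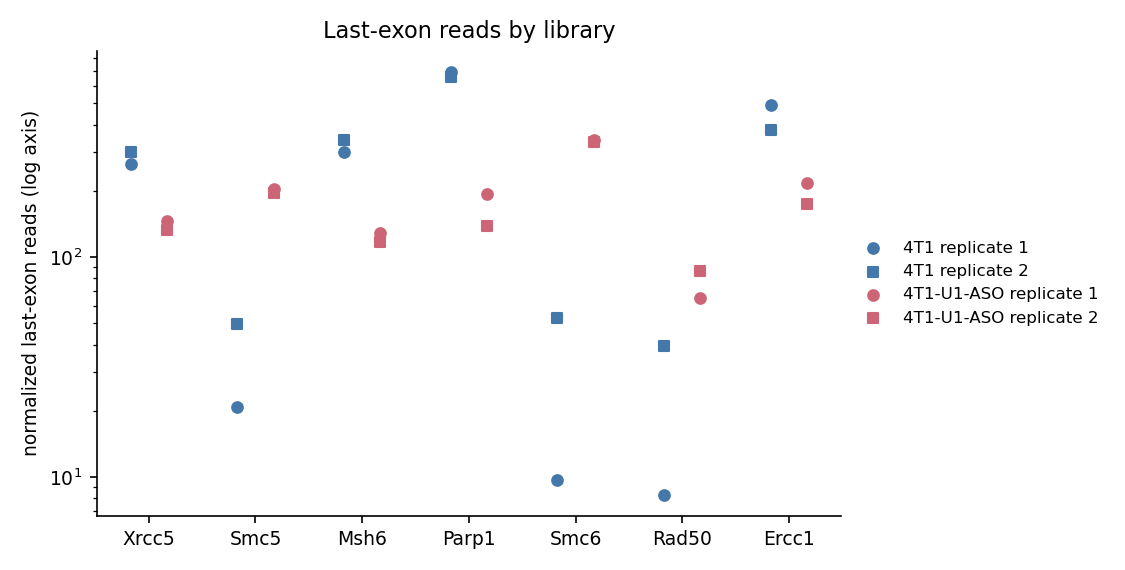
Normalized last-exon reads on a log axis (y axis) for the 7 genes (x axis) in each of the 4 libraries, with replicate 1 as circles and replicate 2 as squares. For Smc5, Smc6 and Rad50 both 4T1-U1-ASO libraries (red) lie above both 4T1 libraries (blue), which are spread apart, and for the other 4 genes they lie below.

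Msh6 encodes a MutS homologue that reads base mismatches. Its site, at chr17:88388561-88388863, had 11 and 11 reads in 4T1-U1-ASO and 4 and 5 in 4T1. Usage was 6.64% ± 0.339 against 1.66% ± 0.23 (SD, n = 2), and the groups did not overlap. The last exon had 161 and 149 reads against 216 and 330, a 2.61-fold lower normalized mean (edgeR, log2 -1.38, adjusted p = 0.000661). Reads at the Msh6 site themselves did not pass the test (edgeR, log2 0.70, adjusted p = 0.285), although they did when libraries were scaled by peak-list read totals (log2 1.28, adjusted p = 0.0409). In the authors' deposited table the log2 difference in usage was 1.73 with an adjusted p of 0.038.

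Parp1 encodes poly(ADP-ribose) polymerase 1, which marks single-strand breaks. Its second site, at chr1:182510660-182510735, had 32 and 24 reads in 4T1-U1-ASO and 26 and 15 in 4T1, so the read numbers overlap. The Parp1 last exon had 243 and 176 reads in the treated libraries and 501 and 639 in 4T1. Usage at this site was 11.8% ± 0.257 against 3.61% ± 1.87 (SD, n = 2), without overlap. The log2 difference was 1.60 with an adjusted p of 0.037 in the authors' deposited table. The last exon fell by 2.03 on the log2 scale (edgeR, adjusted p = 0.000351), and reads at the site did not pass the test (edgeR, log2 -0.15, adjusted p = 0.735).

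The first Parp1 site, at chr1:182507711-182507831, rests on few reads. It had 12 and 1 in 4T1-U1-ASO and 2 and 5 in 4T1. Usage was 2.64% ± 2.93 against 0.587% ± 0.268 (SD, n = 2), and the lower treated library, at 0.565%, lay within the range of 4T1. The authors' deposited table gives a log2 difference of 1.73 with an adjusted p of 0.084. Without 4T1-U1-ASO replicate 1 the fitted log2 difference was 0.07 (edgeR, adjusted p = 0.953), so 1 library carried it. It was also not called without 4T1 replicate 1 (edgeR, log2 1.99, adjusted p = 0.0535).

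Ercc1 encodes the partner of the XPF nuclease, which cuts beside bulky lesions in nucleotide excision repair. Its site, at chr7:19939999-19940715, is the widest of the 9 and lies 1.2 kb 5′ of the end of the last-exon peak. It had 20 and 27 reads in 4T1-U1-ASO and 72 and 89 in 4T1. The last exon had 271 and 222 reads against 354 and 365. Usage was 8.86% ± 2.81 against 18.3% ± 1.91 (SD, n = 2), and the log2 difference was -1.1 with an adjusted p of 0.091 in the authors' deposited table. Ercc1 was the member with a fall in both parts. Reads at the site fell by 2.35 on the log2 scale (edgeR, adjusted p = 2.39e-08) and last-exon reads by 1.15 (edgeR, adjusted p = 0.0022). The last-exon fall was not called with scaling by peak-list read totals (edgeR, log2 -0.53, adjusted p = 0.0539). On IPA relative to the last exon, the edgeR log2 difference was -1.21 with all libraries. Without 4T1-U1-ASO replicate 1 it was -0.86 and was not called.

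Taken apart in this way, reads at the site rose at 3 of the 9 member sites (both Xrcc5 sites and Smc5), fell at 2 (Rad50 and Ercc1) and were not called at 4 (Msh6, Smc6 and both Parp1 sites). Over all 1561 listed sites, edgeR called 57.1% higher and 12.1% lower on site reads alone. The median log2 difference of site reads was 0.31 over the 9 sites, also with the sites at 0 in 4T1 placed at their bound, and 1.58 over all listed sites. Last-exon reads rose in 3 of the 7 genes (Smc5, Smc6 and Rad50) and fell in 4 (Xrcc5, Msh6, Parp1 and Ercc1). Over all 1131 listed genes, 9.37% rose and 54.9% fell. The median log2 difference of last-exon reads was -1.03 over the 7 genes and -0.66 over all listed genes. That second median moved to -0.52 with TMM and to -0.05 with peak-list read totals. Relative to the median of all listed genes, last-exon reads stood at 4.01 for Smc6, 3.12 for Smc5, 2.25 for Rad50, -0.37 for Xrcc5, -0.49 for Ercc1, -0.72 for Msh6 and -1.37 for Parp1, in log2 units under the authors' scaling. Whether these shares differ from those of other genes was not tested.

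**Figure D4:**
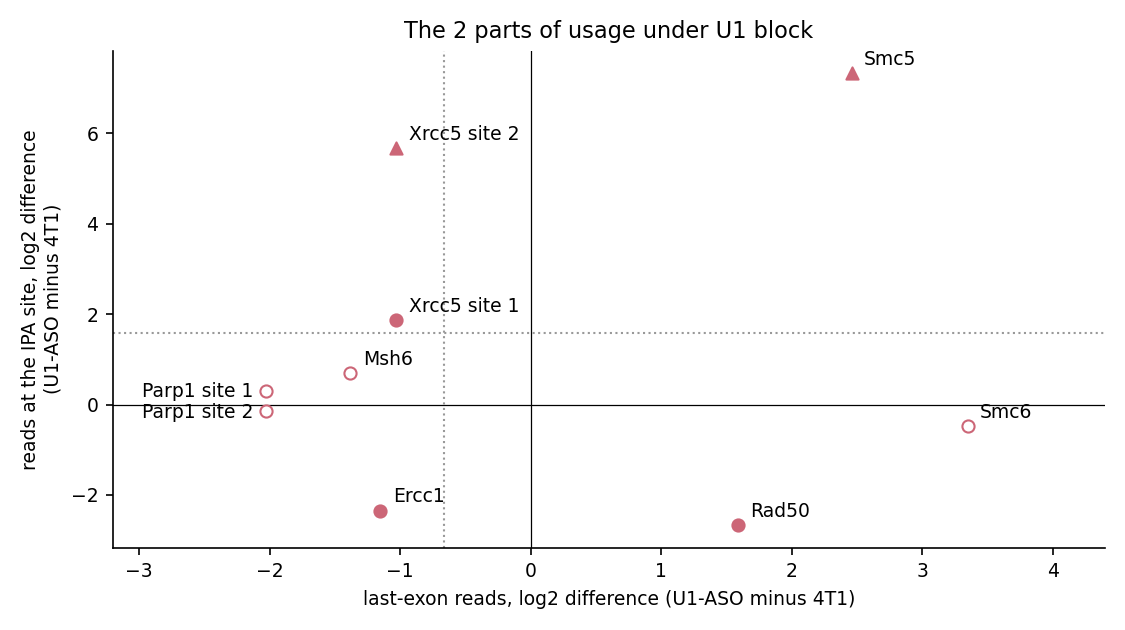
Fitted log2 difference, 4T1-U1-ASO minus 4T1, of last-exon reads (x axis) and of reads at the site (y axis) for the 9 sites. Filled symbols passed the test on site reads, triangles had no site reads in 4T1 so that their height is not a bound, and dotted lines are the medians over all listed features. The Smc5, Smc6 and Rad50 points lie right of 0 and the other 6 lie left of it.

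Among the other 164 genes of the DNA repair lists, 15 were listed under U1 block, with 16 sites used more and 3 used less in 4T1-U1-ASO in the authors' deposited table. Reads at the site rose at 11 of these 19 sites, fell at 3 and were not called at 5. Last-exon reads fell in 7 of the 15 genes and were not called in the other 8 (edgeR, adjusted p under 0.05). Over all listed sites, 87.6% were used more, and on site reads alone 57.1% rose and 12.1% fell. Over all listed genes, last-exon reads fell in 54.9% and rose in 9.37%. The counts of these other repair genes are thus near the background. The sites of Tlk1, a kinase that acts on histone chaperones, showed a rise at the site without a called last-exon difference. Its 3 sites were used at 19.8% ± 3.59, 20.5% ± 2.6 and 25.3% ± 5.63 in 4T1-U1-ASO, against 5.74% ± 2.1, 5.25% ± 4.36 and 5.96% ± 3.12 in 4T1 (SD, n = 2). Polb, the gap-filling polymerase of base excision repair, was used at 12.6% ± 1.86 against 2.27% ± 1.21 (SD, n = 2).

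Of the genes that work beside the members, Nsmce4a, a subunit of the SMC5-SMC6 complex, was used at 1.02% ± 0.455 in 4T1-U1-ASO and 5.37% ± 1.29 in 4T1 (SD, n = 2). Its reads fell at the site (edgeR, log2 -4.22, adjusted p = 2.48e-07) and at the last exon (log2 -1.93, adjusted p = 0.000351). The Nsmce4a last exon thus went the other way from those of Smc5 and Smc6. Tipin, a replication fork protein, was used at 2.05% ± 0.71 against 22% ± 6.4 (SD, n = 2), with 3 and 5 reads at the site against 108 and 82. Pcna, the replication clamp, and Ddb1, a damage-recognition adaptor, had the Parp1 pattern. Their last exons fell by 2.21 and 2.08 on the log2 scale (edgeR, adjusted p = 0.000298 and 0.000345), and none of their 3 sites passed the test on site reads.

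Between the lines, 3 of the 10 genes were listed, all in the comparison of 4T07 with 168FARN and all used less in 4T07. They were Atm, Palb2 and Rad51c, none of which was listed under U1 block. Of the 329 sites in that authors' deposited table, 79.6% were lower in 4T07 and 20.4% higher, so 3 lower sites of 3 is near the background. Of the markers named above, Spint2 and Twist2 also split these 2 lines. Axl, a mesenchymal marker listed in the same comparison, was high in both lines. Its unscaled last-exon counts were 3555 and 3342 for 168FARN, against 2897 and 3115 for 4T07. The part of these markers in the result was not tested. The log2 difference in the authors' deposited table was -2.29 for Atm, -1.57 for Palb2 and -1.5 for Rad51c, with a median of -1.57 against -1.59 for all listed sites. The usage of the groups did not overlap at any of the 3, as at 98.8% of all listed sites. Site reads fell and last-exon reads rose in 4T07 for all 3 genes. Over the whole comparison, edgeR called 58.4% of the 329 sites lower and 19.8% higher on site reads alone, and 52.8% of the 284 genes higher and 24.3% lower on last-exon reads. The medians were close as well, at -1.26 against -1.23 for site reads and 0.80 against 0.48 for last-exon reads, in log2 units for the members and for all.

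Atm encodes the kinase that signals double-strand breaks. Its site, at chr9:53335202-53335407, had 2 and 2 reads in 4T07 and 14 and 17 in 168FARN, with 29 and 38 last-exon reads against 12 and 22. Reads at the site fell by 2.82 on the log2 scale in 4T07 (edgeR, adjusted p = 1e-05), and last-exon reads rose by 1.04 (edgeR, adjusted p = 0.0182). The rise was not called without 4T07 replicate 2 (adjusted p = 0.0963) or 168FARN replicate 1 (adjusted p = 0.0775). Of the 3 genes, Atm had the fewest reads and the widest gap in usage, at -43 percentage points. By each library's own peak list, the Atm site had 7 and 5 reads in 4T1, 3 and 3 in 4T1-U1-ASO and 11 in 67NR replicate 1. No last-exon peak could be matched for Atm, so usage was not computed in those groups.

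Palb2 encodes the partner that ties BRCA1 to BRCA2 at breaks. Its site, at chr7:129258223-129258614, had more reads than the last exon in every library of this comparison. It had 35 and 40 reads in 4T07 and 87 and 81 in 168FARN, and the last exon had 26 and 36 against 16 and 21. Reads at the Palb2 site fell by 1.1 on the log2 scale in 4T07 (edgeR, adjusted p = 7.53e-05), and last-exon reads rose by 0.80 (edgeR, adjusted p = 0.0351). That rise was not called when any 1 of the 4 libraries was left out, with adjusted p of 0.0628 to 0.252.

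The last-exon peak of Palb2, 7.4 kb 3′ of the site, matched the table in all 4 libraries, so usage could be read from the peak lists of the other groups. It was 81.6% (95% Clopper-Pearson interval 71.9% to 89.1%) and 71.7% (62.1% to 80.0%) in 4T1. In 4T1-U1-ASO it was 81.6% (71.9% to 89.1%) and 79.7% (67.8% to 88.7%). In 67NR replicate 1 it was 47.3% (36.7% to 58.0%). The 4T1 and 4T1-U1-ASO values overlapped those of 168FARN, at 84.5% and 79.4%, and lay above those of 4T07, at 57.4% and 52.6%. The order of the lines at Palb2, with 67NR and 4T07 low and 4T1 and 168FARN high, was therefore not the order of the metastatic labels. These values were not tested, and intervals cover counting error only.

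Rad51c encodes a protein needed for recombination repair. Its site, at chr11:87215438-87216337, had 15 and 10 reads in 4T07 and 32 and 31 in 168FARN, with 76 and 73 last-exon reads against 45 and 57. Reads at the site fell by 1.26 on the log2 scale (edgeR, adjusted p = 0.00136) and last-exon reads rose by 0.61 (edgeR, adjusted p = 0.0267). The fall at the Rad51c site was not called without 4T07 replicate 2 (edgeR, log2 -0.87, adjusted p = 0.0595). The rise at the last exon was called again only without 4T07 replicate 2 (adjusted p = 0.0246), with adjusted p up to 0.199 without another library.

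By the peak lists, Rad51c usage was 15.0% (3.21% to 37.9%) and 22.2% (10.1% to 39.2%) in 4T1, and 13.9% (4.67% to 29.5%) and 3.23% (0.0816% to 16.7%) in 4T1-U1-ASO. It was 28.3% (16.0% to 43.5%) and 15.5% (7.35% to 27.4%) in 67NR. The 168FARN libraries, at 41.3% and 35.2% by their lists, were the highest. The 4T1-U1-ASO values lay below those of 4T1 and 67NR without overlap, on 5 and 1 site reads, and the intervals of these groups overlap. The last-exon peak of Rad51c matched the table in 2 of 4 libraries and was off by 1 or 2 reads in the others.

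**Figure D5:**
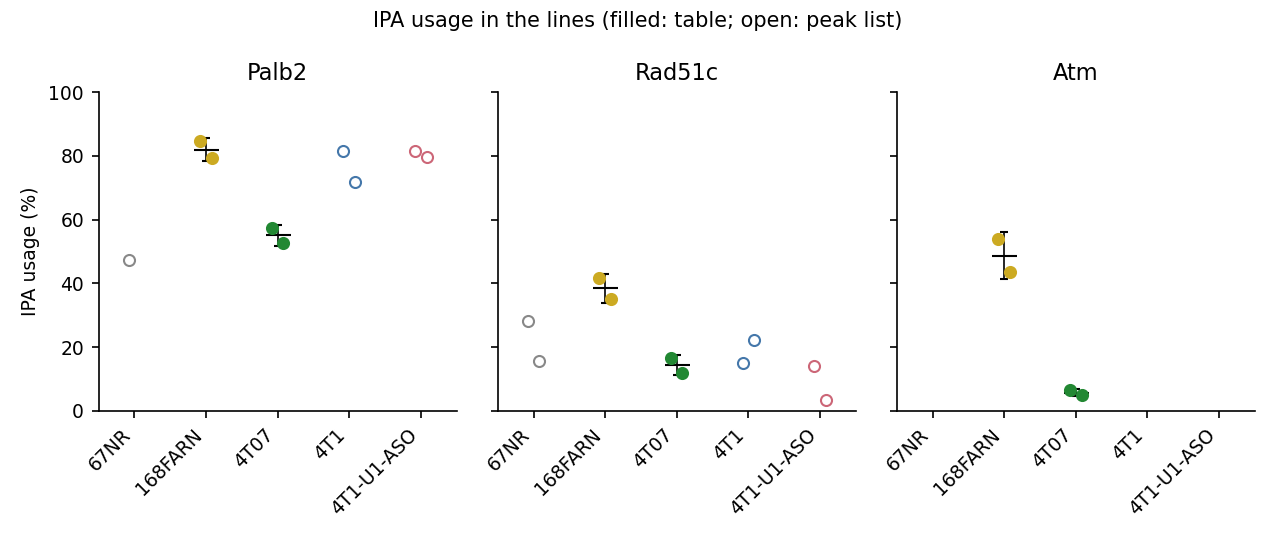
IPA usage in percent (y axis) of Palb2, Rad51c and Atm by group (x axis). Filled points with mean and SD of 2 libraries are from the comparison table of 4T07 with 168FARN, and open points are single libraries from their own peak lists. At Palb2 the 4T1 points lie beside 168FARN, at Rad51c they lie beside 4T07, and Atm has no open points because its last-exon peak could not be matched.

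No member site was listed in the comparisons of 4T1 with 67NR, 4T07 with 67NR or 4T1 with 168FARN, which list 122, 214 and 85 sites. Of those sites, 23.8%, 17.8% and 24.7% were higher in the metastatic line and 76.2%, 82.2% and 75.3% lower. The tables stop at an adjusted p of 0.1, and sites outside them were not analysed here. Some sites listed under U1 block could be followed in the lines without U1 antisense. By the peak lists Ercc1 usage was 16.9% and 19.6% in 4T1, 22.8% in 67NR replicate 1, 20.8% and 15.3% in 4T07 and 24.2% and 20.2% in 168FARN. The 4T1-U1-ASO libraries, at 6.87% and 10.8%, were below all of these. Msh6 usage was 5.63% (3.03% to 9.43%) and 3.32% (1.60% to 6.02%) in 168FARN, 3.34% in 67NR replicate 2 and 3.66% in 4T07 replicate 1. These Msh6 values lay between 4T1 and 4T1-U1-ASO, whose lists gave 6.4% and 6.92% with intervals that overlap those of 168FARN. The second Parp1 site was at 6.82% (4.27% to 10.2%) in 67NR replicate 2, above both 4T1 libraries and below both 4T1-U1-ASO libraries. The first Xrcc5 site was at 2.72% to 3.66% in the 3 untreated lists that hold it, and the second at 0.556% and 0.885% in 2 lists. The first Parp1 site was at 0.655% to 1.44% in 4 lists, within the range of the 4T1-U1-ASO libraries.

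Other DNA repair genes had 1 site listed in 4T1 against 67NR (lower in 4T1), 4 in 4T07 against 67NR (2 higher and 2 lower in 4T07), 1 in 4T1 against 168FARN (higher in 4T1) and 2 in 4T07 against 168FARN (1 higher and 1 lower in 4T07). Trp53, the damage-response transcription factor, had a site at chr11:69395517-69396202 that was used more in 4T07. Its usage was 12.8% ± 3.27, against 1.83% ± 0.663 in 67NR and 1.84% ± 1.26 in 168FARN (SD, n = 2). It had 5 and 4 site reads in 4T07, 6 and 8 in 67NR and 3 and 9 in 168FARN. Another Trp53 site, at chr11:69396846-69397329, was used more in 4T1, at 7.53% ± 1.98 against 0.623% ± 0.429 in 168FARN (SD, n = 2). It rested on 3 and 5 site reads against 1 and 3. Reads at the Trp53 sites did not pass the test in any of the 3 comparisons, and its last exon fell by 2.46 to 3.45 on the log2 scale (edgeR, adjusted p at most 1.09e-05). Stag1, a cohesin subunit, was used more in 4T07 than in 67NR, at 61.3% ± 1.98 against 32.2% ± 10.4 (SD, n = 2). Dna2, a nuclease of break resection, was used less in 4T07 than in 168FARN, at 10.3% ± 10.2 against 46.2% ± 8.3 (SD, n = 2), on 1 and 7 site reads against 23 and 25. Polh, a translesion polymerase, had a usage of 55.0% ± 7.07 in 67NR against 3.85% ± 5.44 in 4T07 (SD, n = 2).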

How the data were processed

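The authors deposited 10 comparison tables and 1 peak list per library, each peak with a whole-number read count. Per the file headers, each table row gives the authors' log2 fold change with a standard error and score. It also gives their p-value, raw and adjusted, and for each of 4 libraries a normalized signal at the site and at the last exon. The build is mm9 and the tools were DESeq2 1.4.5, bedtools 2.17.0, Bowtie2 2.2.5 and SAMtools 1.1, per the submitters' processing notes. Which step each served, and what the peak filter removed, are not given in the sources used here. Positions are 1-based as in the tables, and that a site is intronic rests on the authors' naming, since no mm9 genome or annotation was used.

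The deposited signal holds whole multiples of the value of 1 read. Dividing by it gave whole reads for 100% of values within 0.1 read, in every column. Fold changes are the first-named group minus the second, with the deposited sign turned for tables against 67NR. The recovered counts of all listed sites of a comparison were fitted by edgeR 4.0.16 under R 4.3.3. Library scaling used the authors' size factors, tests were quasi-likelihood, and calls were made at an adjusted p (Benjamini-Hochberg) below 0.05. There were 3 fits: IPA relative to the last exon, site reads alone, and last-exon reads alone with 1 row per gene. In the relative test edgeR called all 1561 and all 329 listed sites, so these p-values are not independent of the authors' selection. The fits of site reads alone and of last-exon reads alone used the same reads of these selected sites. Their p-values are therefore not independent of the selection either. DESeq2 1.42.0 was an alternative. Of the edgeR fits, the relative fit and the fit of site reads alone were run on reads simulated at a dispersion of 0.05. For log2 changes of 2, the relative fit recovered 58% under U1 block and 65.9% in 4T07 against 168FARN. The fit of site reads recovered 69% and 75.6%. Relative calls among unchanged sites were 6 of 1361 and 1 of 247. The simulated reads had 1 fixed dispersion, unchanged last exons and no selection of sites. These rates therefore need not hold for the listed sites. The last-exon fit and DESeq2 were not run on simulated reads. An exact permutation test of 2 against 2 libraries cannot go below a two-sided p of 0.333 and was not used.

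The named sites are all listed sites of the 10 genes, and genes of the DNA repair lists, 174 with the members, may be named where listed; some of these are not reported here. Members and lists were chosen with earlier results of these data known. Last-exon peaks were matched to the tables within 150 kb 3′ of a site by equal reads in at least 2 libraries. None was matched for Smc5, Smc6, Rad50 or Atm. Peak lists are not complete: 63.7% to 100% of listed sites with 10 or more reads had a peak in the library's own list, so a missing peak is not a 0. A list peak was counted at a site where at least 50% of it lay inside. The peak matching, the scan for neighbouring peaks of 40 or more reads within 25 kb and the fits of site reads alone and of last-exon reads alone without each library were chosen after seeing the data.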

Additional observations from a re-analysis of the deposited data

Results flagged for a closer look

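The peak lists held same-strand peaks near 3 member sites that no comparison table lists, higher in both 4T1-U1-ASO libraries than in either 4T1 library. Around the Smc6 site, 6 such peaks lay between 2.8 kb 5′ and 15.6 kb 3′ of it, each with 144 to 231 reads in the 4T1-U1-ASO libraries. The peak 11.3 kb 3′ of the site had 221 and 183 reads in 4T1-U1-ASO and no peak in either 4T1 list. Among the untreated libraries, the lists of 67NR replicate 2 and 4T07 replicate 2 held 42 and 17 reads there, and no other list held a peak. The list of 67NR replicate 2 also held 28 and 31 reads at 13.4 and 14.7 kb. At the peak 0.8 kb 5′ of the site, every list of the other lines held reads. It had 3 and 78 reads in 67NR, 13 and 31 in 4T07, and 9 and 19 in 168FARN. In 4T1 replicate 2 the peaks at 13.4, 14.7 and 15.6 kb had 13, 10 and 16 reads, and 4T1 replicate 1 had none.

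Beside the Rad50 site, a peak 17 kb 3′ had 81 and 91 reads in 4T1-U1-ASO and 18 in 4T1 replicate 2, with none listed in 4T1 replicate 1. An untreated library, 67NR replicate 2, reached the treated level there: 67NR had 24 and 89 reads, 4T07 18 and 27, and 168FARN 11 and 8. At Smc5, a peak 14.7 kb 5′ of the site had 74 and 69 reads in 4T1-U1-ASO and another 11.9 kb 5′ had 50 and 42, with no 4T1 peak at either. Where 67NR, 4T07 or 168FARN lists held these peaks, they had 3 to 10 reads. Without an mm9 annotation these peaks were not assigned to a gene or exon, and the difference was not tested. Since the lists are incomplete, a missing peak is not a measured 0.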

How the results depend on the processing

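On IPA relative to the last exon, 103 alternative values for the 12 sites kept the direction and the call and 5 kept the direction alone. The count of member sites under U1 block stayed within 1.5 times of 6 higher and 3 lower with edgeR under the authors' size factors, TMM, 10 or more IPA reads and DESeq2. Since edgeR under the authors' size factors called all 1561 listed sites under U1 block, these kept calls and counts give no support. The share of all listed sites called under the other settings is not given here. A deposited adjusted p of at most 0.01 left 2 higher and 0 lower, and 1 lower in 4T07 against 168FARN. With a replicate block edgeR called 6 higher and 3 lower under U1 block and 3 lower in the lines; the numbers were not taken as a pairing, since replicate differences correlated at -0.006 and 0.104. Leaving out 1 library gave 5 to 6 higher and 2 to 3 lower sites under U1 block and 3 lower in the lines. On site reads alone, leaving out 1 library called 3 to 4 of the 9 sites, with 3 without 4T1 replicate 2 and 3 without 4T1-U1-ASO replicate 1. On last-exon reads it called all 7 genes under U1 block and 0 to 1 of the 3 line genes, with 0 without 168FARN replicate 1. How many of all listed sites and genes were called in the fits without 1 library is not given here. The member counts in those fits therefore say nothing particular about the members. Site reads turned in sign at uncalled sites. For Smc6 the log2 difference was 0.10 with peak-list read totals and from -1.20 to 2.27 without 1 library, the highest without 4T1 replicate 2. For the first Parp1 site it was -2.22 to 1.19 without 1 library, at -2.22 without 4T1-U1-ASO replicate 1 and -0.0042 without 4T1 replicate 1. For the second Parp1 site it was 0.46 with peak-list read totals, 0.03 without 4T1-U1-ASO replicate 2, 0.51 without 4T1 replicate 1 and -0.70 without 4T1 replicate 2. The causes were not tested. A pseudocount of 1 moved the Smc5 usage difference from 8.69 to 5.05 percentage points. The read numbers given for each site and 2 libraries a group limit the precision.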
